A study of Mus musculus with 9 samples.

Results

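The genes described are 9 inhibitors of MAP kinase signaling, most of them of the MAP kinase ERK, chosen by name. They are the dual-specificity phosphatases Dusp2, Dusp4, Dusp5, Dusp6 and Dusp10, the Sprouty genes Spry1 and Spry2, and the Sprouty-related genes Spred1 and Spred2. They are 9 of the 41128 genes counted by RNA-seq in 9 mouse lymphomas, and 8 of them passed the filter on low counts. Spry2, with 67 reads over all tumors, did not. The tumors came from 3 Bcl6 mice (Smc3 wt/wt;Cγ1 wt/cre;IµBcl6) and 6 Smc3/Bcl6 mice (Smc3 wt/-;Cγ1 wt/cre;IµBcl6), and the comparison asks how the loss of 1 copy of Smc3, a core subunit of cohesin, is reflected in tumor expression. Both genotypes carried the IµBcl6 allele, which keeps Bcl6 expressed in B cells from the immunoglobulin heavy chain locus, and the Cγ1-Cre allele, which acts in B cells entering the germinal center reaction. The labels give no age and describe 2 tumors, replicate 1 of each genotype, as mesenteric lymph node and the other 7 as lymph node. The paper describes the sequenced lymphoma cells of both genotypes as mesenteric, so the label may not mark a different site. Other cells of the node were present beside the lymphoma cells, so fewer cells of a type and less RNA per cell cannot be told apart. Each tumor gave 1 library, and p-values measure the spread between these libraries only.

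ERK is switched on by a relay of RAS and kinases downstream of antigen, cytokine and growth factor receptors. DUSPs remove the activating phosphates from MAP kinases. Dusp6 acts on ERK in the cytoplasm, Dusp5 on ERK in the nucleus, Dusp2 and Dusp4 are nuclear phosphatases with a wider range of substrates, and Dusp10 acts mainly on the related kinases JNK and p38. Sprouty and Spred proteins act further upstream, between receptors and the kinase relay. Several of these genes are themselves induced by ERK, so their transcripts are widely read as a trace of earlier pathway activity as well as of its restraint. In lymphocytes, Dusp2, Dusp5 and Dusp6 are known as genes that rise after receptor stimulation.

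Library depth ranged from 10156728 to 17774577 counts. Smc3 itself had 88.1 to 126 CPM (reads per 1000000, with library sizes scaled by the TMM method) in the Bcl6 tumors and 89.7 to 111 in 5 Smc3/Bcl6 tumors, with 27.9 in Smc3/Bcl6 tumor 2 (log2 fold change -0.19, SE 0.385, Benjamini-Hochberg adjusted p = 1.00 in the quasi-likelihood test of edgeR). The labelled genotype was thus not visible in the Smc3 counts of 5 of the 6 heterozygous tumors. The paper states that lower Smc3 expression was verified, with RT-qPCR in tumors of both genotypes. The deletion targets an exon, so counts over the whole gene are no direct check of it. Smc3/Bcl6 tumor 2 stood apart: its deviations from the other tumors ran against gene length (Spearman correlation across genes -0.466, against -0.030 to 0.273 in the other tumors). The summed CPM of 8 B-cell markers was 2805 to 8820 in Bcl6 and 4782 to 10602 in Smc3/Bcl6 tumors, so the labelled lineage was present in each. That of 10 T-cell markers ran from 316 to 2897 and from 99.7 to 2946.

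RefSeq start sites (GRCm38.p6, from 250 bases before to 50 after the start) were matched for 8 of the 9 members, all except Dusp4. The windows of Dusp5, Dusp2 and Dusp6 are shown because these 3 members were the most abundant per kilobase of exon in the tumors, and because that of Dusp5 holds a pair of elements few windows hold. Each reads 5′ to 3′ on the + strand. Capitals in Dusp5 mark 2 adjacent CArG boxes, the element bound by serum response factor, and CGTCA, the reverse complement of TGACG, the core of the CREB element. Capitals in Dusp2 mark GCGGGGGCG, the EGR element, and CGTCA. Dusp6 held none of the elements searched.
Dusp5, chr19:53528895-53529194: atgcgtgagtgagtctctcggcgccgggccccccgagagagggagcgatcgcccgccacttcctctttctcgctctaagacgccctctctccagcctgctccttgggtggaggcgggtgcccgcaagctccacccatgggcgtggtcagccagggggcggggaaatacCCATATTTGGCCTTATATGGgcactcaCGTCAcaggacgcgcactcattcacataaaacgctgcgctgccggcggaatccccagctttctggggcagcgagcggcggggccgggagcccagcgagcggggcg
Dusp2, chr2:127335909-127336208: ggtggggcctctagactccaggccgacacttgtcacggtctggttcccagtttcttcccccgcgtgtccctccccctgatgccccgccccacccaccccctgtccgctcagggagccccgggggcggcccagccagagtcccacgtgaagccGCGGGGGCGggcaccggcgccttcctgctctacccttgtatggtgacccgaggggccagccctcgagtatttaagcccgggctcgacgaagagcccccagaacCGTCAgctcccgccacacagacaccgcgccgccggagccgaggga
Dusp6, chr10:99262981-99263280: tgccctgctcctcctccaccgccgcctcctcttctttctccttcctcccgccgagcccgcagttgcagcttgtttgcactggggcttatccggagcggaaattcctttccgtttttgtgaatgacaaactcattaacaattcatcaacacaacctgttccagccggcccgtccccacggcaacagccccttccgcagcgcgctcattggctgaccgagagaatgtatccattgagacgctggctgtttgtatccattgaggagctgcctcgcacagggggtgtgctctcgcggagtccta

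The CArG boxes of Dusp5 read CCATATTTGG, 82 bases before the start, and CCTTATATGG, 72 bases before it. A CArG box on either strand was held by 535 of 32851 such windows of all RefSeq genes (1.63%), and 6 windows (0.0183%) held 2 or more. Among the 8 members only the Dusp5 window held one. TGACG, either strand, stood in the windows of Dusp2, Dusp5 and Spred2 and in 20.8% of all windows. GCGGGGGCG stood in that of Dusp2 and in 2.91% of all. CCGGAA, the core of the ETS element, stood in that of Spry2 and in 14.9% of all. The full CREB element TGACGTCA, the longer ETS element CCGGAAGT and the AP-1 element TGACTCA stood in 0 of the 8 windows and in 1.79%, 3.89% and 5.20% of all. These matches describe letters in a window and are not sites of binding.

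Levels between genes were compared per kilobase of exon. By median CPM per kb over the 9 tumors the order was Dusp2 (19.4), Dusp6 (12.4), Dusp5 (7.33), Dusp10 (7.20), Dusp4 (2.80), Spred1 (0.907), Spred2 (0.856), Spry1 (0.288) and Spry2 (0.175). The phosphatases thus stood above the Spred genes, and both Sprouty genes were close to the limit of detection. Of the 8 neighboring pairs in this order, 4 differed beyond their spread over tumors (exact sign-flip test of the log2 ratio, two-sided, adjusted over the 8 pairs). Dusp6 exceeded Dusp5 in 8 of 9 tumors (adjusted exact p = 0.0469). Dusp10 exceeded Dusp4, Dusp4 exceeded Spred1 and Spred2 exceeded Spry1 in 9 of 9 (adjusted exact p = 0.0104 each, from the smallest p that 512 sign flips allow, 0.00391). Dusp2 and Dusp6, Dusp5 and Dusp10, Spred1 and Spred2, and Spry1 and Spry2 did not differ beyond their spread. Dusp5 exceeded Dusp10 in 5 of 9 tumors and Spred1 exceeded Spred2 in 3 of 9. The pairs came from the ranking of these same tumors, so the p-values are no independent test of the order.

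**Figure D1:**
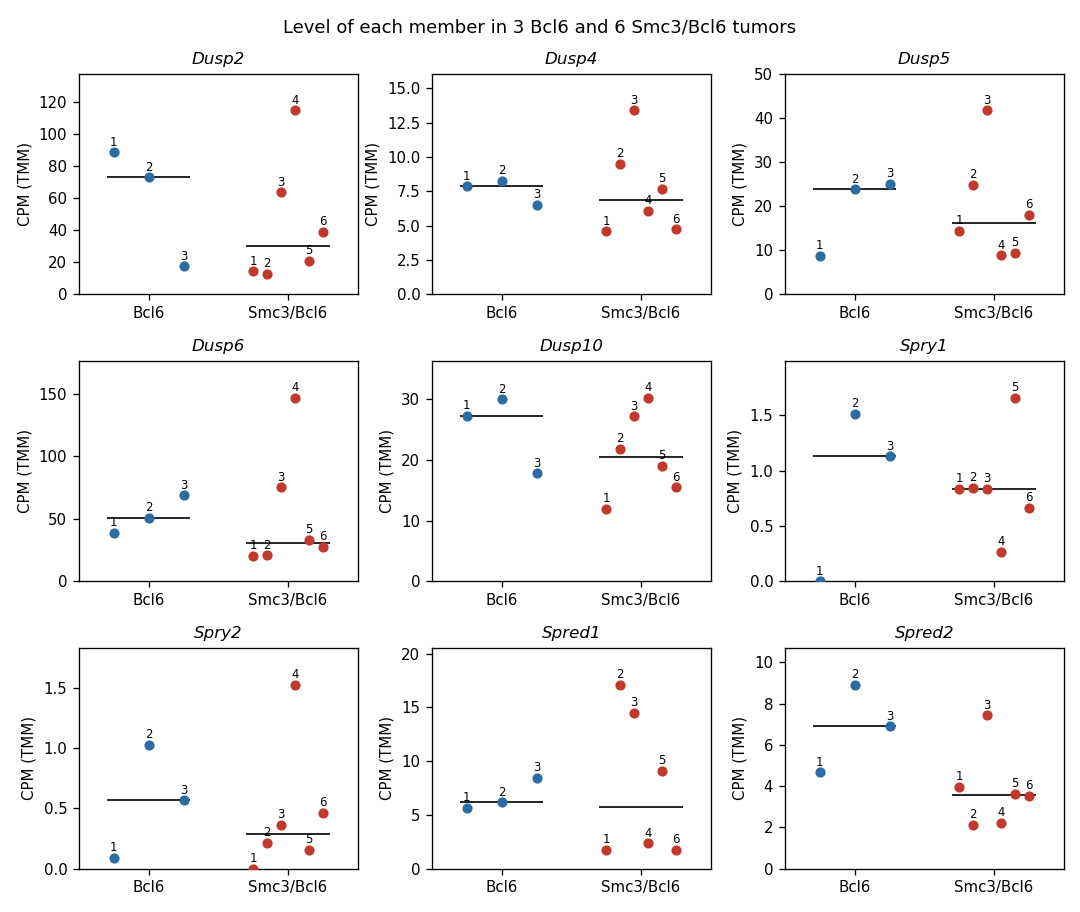
CPM (TMM-scaled, y axis from 0) of each of the 9 genes in the 3 Bcl6 (blue) and 6 Smc3/Bcl6 (red) tumors. Each point is 1 tumor with its replicate number and the line is the group median. The groups overlap for all 9 genes, and Smc3/Bcl6 tumor 4 is highest for Dusp2, Dusp6, Dusp10 and Spry2.

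The ERK phosphatase of the cytoplasm, Dusp6 (ENSMUSG00000019960.7, chr10:99263231-99267489, + strand, GRCm38), had 39.0, 50.9 and 68.9 CPM in Bcl6 tumors 1 to 3. In the Smc3/Bcl6 tumors it had 20.6 at the lowest, 30.4 as the median and 147 at the highest. The Bcl6 values lay inside the Smc3/Bcl6 range, and Smc3/Bcl6 tumors 3 and 4 stood above all others while the remaining 4 stood below all Bcl6 tumors. Group means were 52.9 ± 15.1 (SD, n = 3) and 54.1 ± 49.9 (SD, n = 6). The log2 fold change of Smc3/Bcl6 over Bcl6 was 0.03 (SE 0.642, 95% interval -1.40 to 1.46). Where tumors 1 to 3 of each genotype were paired by their number (the replicate block), a pairing the labels do not state, it was -0.73 (SE 0.411).

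The nuclear ERK phosphatase Dusp5 (ENSMUSG00000034765.6, chr19:53529109-53542431, + strand) had 8.73, 23.8 and 25.1 CPM in the Bcl6 tumors. The Smc3/Bcl6 tumors ran from 8.85 to 41.8 CPM around a median of 16.2. Bcl6 tumor 1 and Smc3/Bcl6 tumors 4 and 5 were low together, and Smc3/Bcl6 tumor 3 was highest. The log2 fold change was 0.02 (SE 0.545, 95% interval -1.19 to 1.24). Dusp5 lies on chromosome 19 and ends 57966 bases before the start of Smc3, the gene deleted in the Smc3/Bcl6 mice. Of its exonic bases, 547 overlap the antisense gene AC137853.2, and reads of such a pair cannot be told apart where counting does not use strand.

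Dusp2 (ENSMUSG00000027368.6, chr2:127336159-127338376, + strand), the most abundant member per kilobase, had 88.8, 73.0 and 17.4 CPM in the Bcl6 tumors. Among Smc3/Bcl6 tumors it had 12.7 CPM at the lowest, 29.9 as the median and 115 at the highest. Both genotypes held tumors under 20 CPM and tumors above 60 CPM. The log2 fold change was -0.43 (SE 0.740, 95% interval -2.08 to 1.22). It was -0.064 without Bcl6 tumor 1, -0.95 without Smc3/Bcl6 tumor 4 and -1.36 (SE 1.05) with the replicate block.

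Dusp4 (ENSMUSG00000031530.6, chr8:34807297-34819894, + strand), whose enhancer contacts were of interest to the study, had 7.85, 8.26 and 6.52 CPM in the Bcl6 tumors. The Smc3/Bcl6 tumors ran from 4.58 to 13.4 CPM, around a median of 6.86. The 3 Bcl6 tumors lay close together, with Smc3/Bcl6 tumors on both sides of them. The SD of log2 CPM was 0.18 among the former and 0.59 among the latter. The log2 fold change was 0.02 (SE 0.414, 95% interval -0.90 to 0.95), an interval that reaches from a fall of nearly 1 to a rise of nearly 1 on the log2 scale.

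Dusp10 (ENSMUSG00000039384.8, chr1:184013302-184075636, + strand) had 27.3, 30.0 and 17.8 CPM in the Bcl6 tumors and 11.9 at the lowest, 20.4 as the median and 30.3 at the highest in Smc3/Bcl6. It had the narrowest range of the 7 members with reads in every tumor, with a highest value 2.56 times the lowest. The log2 fold change was -0.26 (SE 0.339, 95% interval -1.01 to 0.50).

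Spred1 (ENSMUSG00000027351.9, chr2:117121374-117182279, + strand), which restrains RAS by recruiting neurofibromin, had 5.64, 6.16 and 8.41 CPM in the Bcl6 tumors. It had 1.73 CPM in Smc3/Bcl6 tumors 1 and 6, 2.33 in tumor 4, 9.08 in tumor 5, 14.5 in tumor 3 and 17.1 in tumor 2. The Smc3/Bcl6 tumors thus lay on either side of the Bcl6 tumors, 3 below and 3 above, with none between. The SD of log2 CPM was 0.30 in Bcl6 and 1.51 in Smc3/Bcl6, and the log2 fold change was 0.20 (SE 0.798, 95% interval -1.58 to 1.98). This SD was also larger in Smc3/Bcl6 for Dusp6, Dusp10 and Spred2. It was about equal for Dusp2 (1.28 in Bcl6 and 1.26 in Smc3/Bcl6) and Dusp5 (0.85 in both), and smaller for Spry1 (1.94 and 0.69). The difference in spread between genotypes was not tested.

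Spred2 (ENSMUSG00000045671.12, chr11:19924375-20024026, + strand), its close relative, had 4.67, 8.91 and 6.90 CPM in the Bcl6 tumors. Among the Smc3/Bcl6 tumors it had 2.12 CPM at the lowest, 3.58 as the median and 7.42 at the highest. All Smc3/Bcl6 tumors but tumor 3 lay below the lowest Bcl6 tumor. Its log2 fold change of -0.84 (SE 0.466, 95% interval -1.88 to 0.20) was the farthest from 0 among the members, with an unadjusted p of 0.102 in edgeR's quasi-likelihood test and an exact permutation p of 0.0833. The smallest two-sided p of the 84 splits of 9 tumors into 3 and 6 is 0.0119. With each tumor left out in turn it ran from -1.17 without Smc3/Bcl6 tumor 3 (unadjusted p = 0.0238) to -0.63 without Bcl6 tumor 2 (unadjusted p = 0.312). It passed the study's thresholds (log2 fold change past 0.56, unadjusted p under 0.1) in 2 of these 9 fits, without Smc3/Bcl6 tumor 3 and without Bcl6 tumor 1 (-1.09, unadjusted p = 0.0748), where 2.32% and 1.64% of all genes were lower by them and the adjusted p was 1.00. With the replicate block it was -0.73 (unadjusted p = 0.313).

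Spry1 (ENSMUSG00000037211.7, chr3:37639947-37644598, + strand) had 0, 1.51 and 1.13 CPM in the Bcl6 tumors and 0.266 to 1.66 CPM in the Smc3/Bcl6 tumors, from 0 to 28 reads a library. The count of 0 in Bcl6 tumor 1 allows up to 0.265 CPM. Spry2 (ENSMUSG00000022114.4, chr14:105891947-105896819, - strand) had 0.0882, 1.03 and 0.567 CPM in the Bcl6 tumors and 0 to 1.53 in the Smc3/Bcl6 tumors, from 0 to 23 reads. Its count of 0 in Smc3/Bcl6 tumor 1 allows up to 0.208 CPM, and these limits cover counting error only. Neither Sprouty gene showed a genotype difference detectable at this depth (Spry1 log2 fold change -0.07, SE 0.918; Spry2 exact permutation p = 0.679). Of the exonic bases of Spry1, 710 overlap the antisense gene Gm42922.

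In edgeR's quasi-likelihood test, 0 of the 8 members tested had an adjusted p below 0.05, as did 0 of the 14057 genes tested (0%). At an unadjusted p below 0.05 there were 0 members, against 79 genes (0.562%). By the study's thresholds 0 members were past, against 180 genes higher (1.28%) and 122 lower (0.868%). The groups overlapped for all 9 members and did not overlap for 0.484% of the genes tested. Log2 fold changes were positive for 4 members and negative for 4, with 3 within 0.05 of 0 and a median of -0.02, against 0.06 over all genes. The median SE was 0.593 for the members and 0.465 over all genes. By DESeq2, by limma with a quality weight per tumor and with a length and GC content offset, Spred2 was past the study's thresholds (unadjusted p = 0.0924, 0.0104 and 0.0902), and lower genes made up 0.719%, 7.13% and 0.797% of all genes in these fits. The adjusted p of Spred2 was 0.563 by limma and 1.00 by the other 2.

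**Figure D2:**
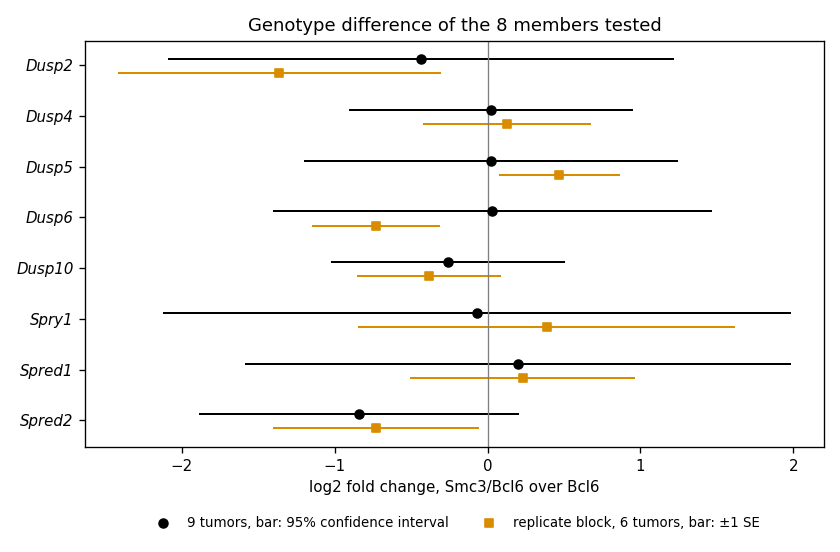
Log2 fold change (x axis) of the 8 members tested, with the 95% confidence interval over 9 tumors (black circles) and, for the replicate block of 6 tumors, ±1 SE (orange squares). All 8 intervals over 9 tumors include 0. Dusp6 is at 0.03 over 9 tumors and at -0.73 with the block.

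Members differed widely in how much they varied between tumors. The highest tumor exceeded the lowest 9.89 times for Spred1, 9.03 times for Dusp2, 7.14 times for Dusp6, 4.79 times for Dusp5, 4.21 times for Spred2 and 2.93 times for Dusp4. The SD of log2 CPM over the 9 tumors was 1.22 for Dusp2 and for Spred1, at percentiles 83.9 and 83.8 of the genes tested, and 0.94 for Dusp6, at percentile 72.9. It was 0.48 for Dusp4 and 0.47 for Dusp10, at percentiles 32.7 and 31.5, and the median gene had 0.63. Without Smc3/Bcl6 tumor 2, the library that stood apart, Dusp4 and Dusp10 were at percentiles 56.0 and 57.1, on the other side of the median gene, while Dusp2, Spred1 and Dusp6 were at 84.1, 83.6 and 77.8. Smc3/Bcl6 tumor 4 held the highest value of 4 of the 9 genes and Smc3/Bcl6 tumor 1 the lowest of 4.

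Of the 28 pairs among the 8 members tested, 22 correlated positively across the 9 tumors (log2 CPM, median Pearson r 0.228, range -0.542 to 0.882). A correlation over 9 libraries also shares their depth and makeup of cells. By exact permutation over all pairings, 3 pairs had an unadjusted p below 0.05, and 1 passed adjustment over the 28. That pair was Dusp4 and Spred1, with r = 0.882 (exact p = 0.00135, adjusted p = 0.0379) and Spearman's rho 0.833 (exact p = 0.00827, adjusted p = 0.231). Without the 2 tumors farthest from the median of Dusp4, r was 0.867, within the 7 tumors labelled lymph node it was 0.847, and as deviations from the genotype means it was 0.883. Spred1 values had a gap, however, and among the 6 tumors above it r was 0.636 (exact p = 0.172). The r of Dusp4 and Spred1 was 0.802 with CPM by total count and 0.668 with the length and GC content offset. In both settings 0 of the 28 pairs passed adjustment. The same held when any tumor other than Bcl6 tumor 3 was left out, where the r of Dusp4 and Spred1 ranged from 0.843 to 0.900.

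None of the pairs among Dusp2, Dusp6 and Dusp10 passed adjustment. Dusp2 correlated with Dusp10 at r = 0.768 (exact p = 0.0202, adjusted p = 0.283, rho 0.767 with exact p = 0.0214) and with Dusp6 at r = 0.673 (exact p = 0.0483, adjusted p = 0.348, rho 0.700 with exact p = 0.0433). Dusp6 and Dusp10 had r = 0.643 (exact p = 0.0622, adjusted p = 0.348), and 0.451 without the 2 tumors farthest from the median of Dusp6. Without the 2 tumors farthest from the median of Dusp2 (Smc3/Bcl6 tumors 2 and 4), r with Dusp10 was 0.861 and r with Dusp6 was 0.378. The r with Dusp6 was 0.591 without tumor 2 alone and 0.519 without tumor 4 alone. Dusp5 and Dusp6, the nuclear and the cytoplasmic ERK phosphatase, had r = -0.005 (exact p = 0.990) and rho 0.117. Dusp6 was highest in Smc3/Bcl6 tumor 4, at 147 CPM, where Dusp5 had 8.85. In Smc3/Bcl6 tumor 3, where Dusp5 was highest at 41.8 CPM, Dusp6 had 75.1.

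**Figure D3:**
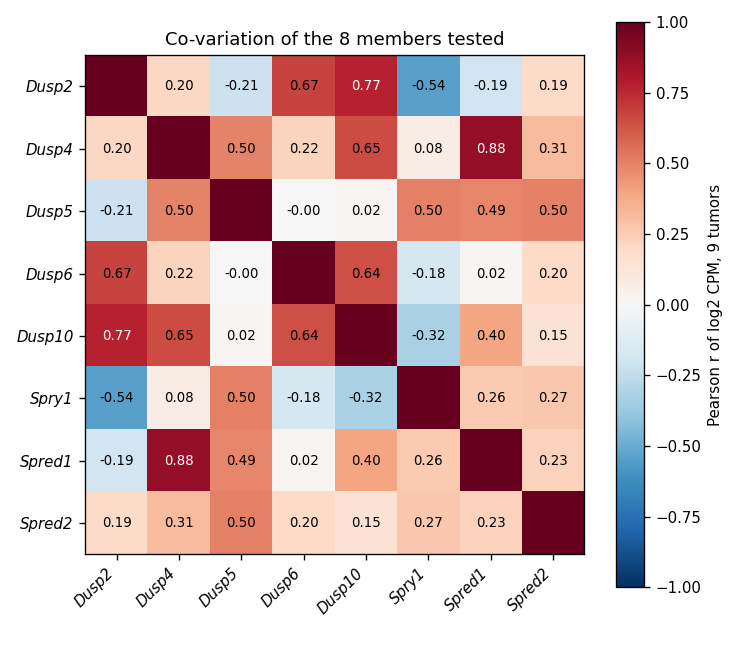
Pearson r of log2 CPM over 9 tumors for each pair of the 8 members tested, on a color scale from -1 (blue) to 1 (red), with the value in each cell. Dusp4 and Spred1 have the highest r, 0.88, and Dusp2 and Dusp10 have 0.77.

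The members were set against the mean log2 CPM of 9 cell-type marker lists and of 13 tested genes that ERK is known to induce, 80 relations in all. Of these, 9 had an exact p below 0.05 and 0 passed adjustment. The lowest p was that of Dusp6 with the ERK-induced genes, r = 0.913 (exact p = 0.000816, adjusted p = 0.0653) with rho 0.817 (exact p = 0.0108, adjusted p = 0.215). Without the 2 tumors farthest from the median of the list, r was 0.781, and within the 7 tumors labelled lymph node it was 0.967. Dusp2 had r = 0.773 (exact p = 0.0152, adjusted p = 0.301) and rho 0.867 (exact p = 0.00451, adjusted p = 0.162). Dusp10 had r = 0.674 (exact p = 0.0470, adjusted p = 0.417) and rho 0.800 (exact p = 0.0138, adjusted p = 0.221). These are the 3 phosphatases whose own correlations are given above.

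Single genes of the ERK-induced list followed Dusp6 unevenly. Of the 13, 11 had a positive r with it, with a median of 0.571. Ier2 and Junb, immediate early genes, had r = 0.774 and 0.740. Myc, the growth regulator, had r = -0.844. Egr3 was the list's highest with Dusp2 (r = 0.834) and Ier2 with Dusp10 (r = 0.820). These values are given as a description over 9 tumors.

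Spred1 and Dusp4 were set against the T-cell markers tumor by tumor, because the T-cell list fell into 2 clusters, 2.37 to 3.76 in 4 tumors and 6.01 to 7.62 in 5 (mean log2 CPM), and no pooled r is given for clusters of this size. Both pooled relations were among the 80 above and did not pass adjustment (exact permutation, adjusted p = 0.105 for Spred1 and 0.263 for Dusp4). In order of rising T-cell level, Spred1 had 1.73, 1.73, 2.33 and 5.64 CPM in the first 4 tumors (Smc3/Bcl6 1, 6 and 4, then Bcl6 1). It had 9.08, 17.1, 8.41, 6.16 and 14.5 CPM in the other 5 (Smc3/Bcl6 5 and 2, Bcl6 3 and 2, Smc3/Bcl6 3). All 5 tumors with more T-cell transcripts thus had more Spred1 than any of the 4 with fewer. Dusp4 had 4.58, 4.73, 6.06 and 7.85 CPM in the first 4 and 7.66, 9.52, 6.52, 8.26 and 13.4 in the other 5, and these ranges overlapped. The part of T cells in the levels of Spred1 and Dusp4 was not tested. Dusp5 ran against the B-cell markers (r = -0.745, exact p = 0.0188, adjusted p = 0.301, rho -0.883 with exact p = 0.00308 and adjusted p = 0.162), and r was -0.797 without the 2 tumors farthest from the median of the list. With the replicate block r was 0.379, of the opposite sign. That r rests only on the genotype differences of tumors 1 to 3, so it is imprecise.

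**Figure D4:**
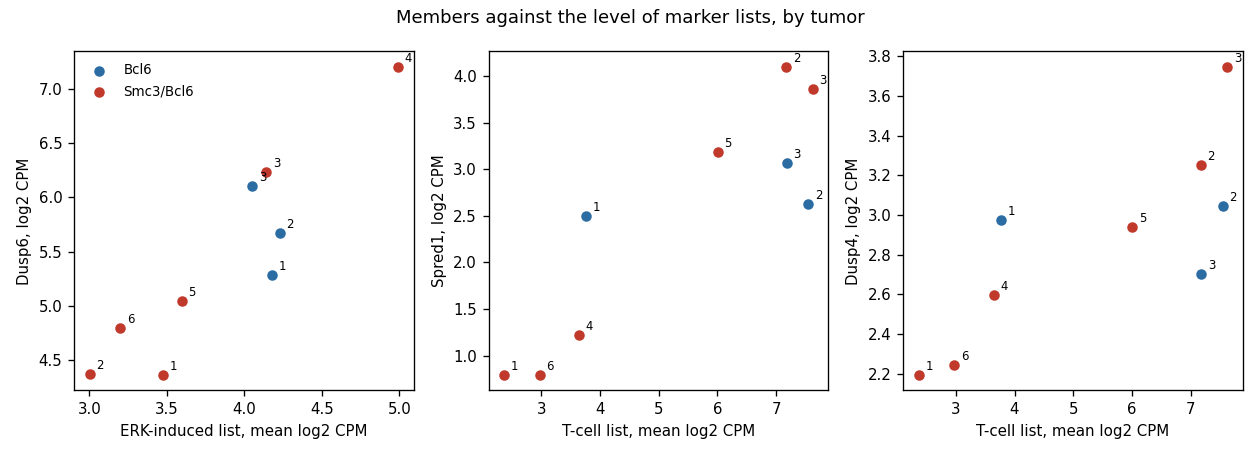
Left, Dusp6 (log2 CPM) against the mean log2 CPM of 13 ERK-induced genes. Middle and right, Spred1 and Dusp4 (log2 CPM) against the mean log2 CPM of 10 T-cell markers, with 1 point per tumor, its replicate number and its genotype by color (Bcl6 blue, Smc3/Bcl6 red). Dusp6 rises with the list from Smc3/Bcl6 tumor 2 to tumor 4, and the T-cell list falls into 2 clusters with a gap from 3.76 to 6.01.

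The tested genes most like each member over the 9 tumors, by Pearson r of log2 CPM among 14049 genes, were taken as a description. They are the highest values of a search over many genes in few tumors, which yields high r without any relation, and none was tested. For Dusp2 they were Sbk1 (0.979) and the immunoglobulin variable genes Ighv1-5 (0.965) and Igkv14-100 (0.964). For Dusp6 they were C030034I22Rik (0.967), Ccdc125 (0.966) and the lymphocyte receptor gene Gpr174 (0.949). For Spred1 they were Trbv13-1 (0.948), a T-cell receptor variable gene, Cxcr6 (0.947), a chemokine receptor of T and NK cells, and Calca (0.943). Dusp10 lay nearest to Lbh (0.972), Zbtb25 (0.929) and Nanos1 (0.926), and Dusp5 to Gabarapl1 (0.933), Arhgap1 (0.907) and Glipr2 (0.900). Dusp4 lay nearest to Gcg (0.929), Nudt17 (0.915) and Arxes2 (0.883). Spred2 lay nearest to Parp9 (0.947), Plekha5 (0.930) and Gm4951 (0.929), and Spry1, near its detection limit, to Gm15472 (0.936), Mir22hg (0.926) and Ccl7 (0.920).

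Around the 9 members, 53 further genes of the pathway were measured and 50 tested. By the study's thresholds 0 were higher and 0 lower, with 26 positive and 24 negative log2 fold changes and 0 at an unadjusted p below 0.05. Among the other family members, 6 of 7 were tested, with a median log2 fold change of 0.13. Spry3 is not analysed here. Dusp7 and Dusp16, phosphatases of ERK and of JNK and p38, had 16.5 ± 2.57 and 14.1 ± 3.04 CPM in Bcl6 (SD, n = 3) and 18.0 ± 8.13 and 15.7 ± 7.51 in Smc3/Bcl6 tumors (SD, n = 6).

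Dusp1, the stress-induced nuclear phosphatase and the most abundant other family member, had 142, 146 and 271 CPM in the Bcl6 tumors. In the Smc3/Bcl6 tumors it had 78.5, 36.9, 66.2, 774, 62.0 and 39.8. Tumor 4 stood above all other tumors of either genotype, and the other 5 lay below all Bcl6 tumors. The log2 fold change over 9 tumors was -0.08 (SE 0.986). Without tumor 4 it was -1.75 (SE 0.363, unadjusted p = 0.000995, adjusted p = 1.00), in a fit where 1.08% of 13762 genes were lower by the study's thresholds. Tumor 4 was singled out for its high value, so the p of that fit is no test of the genotype. Without any other single tumor the log2 fold change ran from -0.33 to 0.29. With the replicate block, which uses tumors 1 to 3 only and where 1.90% of 13360 genes were lower, it was -1.66 (SE 0.423, unadjusted p = 0.00696, adjusted p = 0.983).

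The 16 genes that carry the signal from receptor to ERK had a median log2 fold change of 0.10. The adaptor Grb2, the most abundant of them, had a log2 fold change of -0.12 (SE 0.280). The 6 genes for RAS GTPase-activating proteins had a median of -0.17, with Rasa3 at -0.36 (SE 0.385), Rasal3 at -0.09 (SE 0.345) and Rasa1 at -0.25 (SE 0.414). Nf1, which encodes the neurofibromin that Spred1 recruits, had 14.8 ± 3.71 CPM in Bcl6 (SD, n = 3) and 17.3 ± 6.91 in Smc3/Bcl6 tumors (SD, n = 6), at 0.23 (SE 0.434). The 9 genes of the JNK and p38 relays, on which Dusp10 acts, had a median of -0.08, with Map2k3 at -0.15 (SE 0.209), Mapk14 at -0.08 (SE 0.287) and Mapk9 at 0.04 (SE 0.180). None of these reached an unadjusted p of 0.1 in edgeR's quasi-likelihood test.

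The ERK-induced genes had a median log2 fold change of 0.13 over 13 tested. Their 3 most abundant were Junb at 0.07 (SE 0.566), Myc at 0.13 (SE 0.279) and Fos at 0.30 (SE 1.42). Fos, a subunit of the AP-1 factor, had 416, 146 and 178 CPM in the Bcl6 tumors and 257, 8.78, 32.0, 1460, 50.6 and 19.8 in the Smc3/Bcl6 tumors. As for Dusp1 and Dusp6, tumor 4 was the highest. Without tumor 4 the log2 fold change of Fos was -1.73 (SE 0.949, unadjusted p = 0.102), and with the replicate block it was -2.44 (SE 0.735, unadjusted p = 0.0148, adjusted p = 0.983). Tumor 4 was singled out by its value here too. Without any other single tumor the log2 fold change of Fos ran from 0.035 to 0.83. With the block, the median log2 fold change was -0.53 for this list and -0.13 for the members, against -0.08 over all genes.

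**Figure D5:**
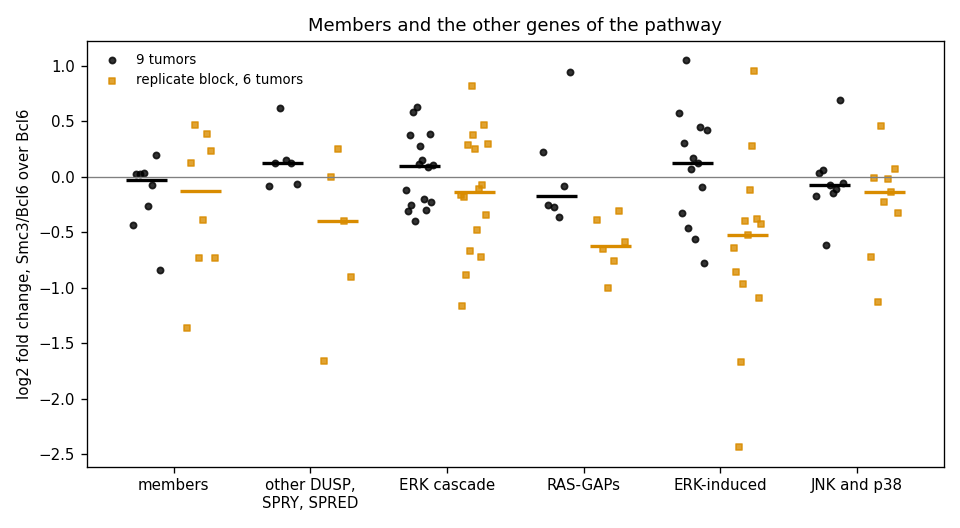
Log2 fold change (y axis) of each tested gene of the members and of 5 pathway lists, over 9 tumors (black circles) and in the replicate block of 6 tumors (orange squares). Lines are medians. Over 9 tumors the medians of the lists lie between -0.17 and 0.13, and the squares of Fos and Dusp1 lie at -2.44 and -1.66.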

How the data were processed

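RNA-seq of 3 Bcl6 and 6 Smc3/Bcl6 lymphomas was analyzed, with 1 library per tumor. According to the methods, the authors aligned reads to mm10 with STAR in the nf-core pipeline and counted them per Gencode gene with featureCounts; the strand setting is not given in the sources used here. The deposited values are raw counts, and per the labels' processing notes the submitters used R 4.0.2 and DESeq2 1.28.1. The table held 0 columns without a sample. Positions and exon lengths came from GENCODE M21 (GRCm38), which held 97.9% of its gene identifiers.

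Genotypes were compared in all 9 tumors with edgeR 4.0.16 in R 4.3.3 (TMM scaling, filterByExpr with the genotypes as groups, the quasi-likelihood test, p-values adjusted over all genes tested by the Benjamini-Hochberg method). Single values were tested on all 84 splits of the tumors into 3 and 6 (exact permutation), and correlations used all 362880 pairings, two-sided, on log2 CPM with a prior count of 2. Log2 fold changes are of Smc3/Bcl6 over Bcl6. Alternatives were DESeq2 1.42.0, limma 3.58.1 with voom and a quality weight per tumor, other normalizations, filters and prior counts, the tissue label, an offset for length and GC content (lowess, span 0.3), the replicate number as a block, and each tumor left out in turn. Correlations within the 7 tumors labelled lymph node were added after seeing the data. Deviations of same-numbered tumors 1 to 3 of the genotypes correlated at 0.443, 0.113 and 0.155 across genes. Tumors of different numbers were not compared, so these values do not show that the numbers pair tumors. The labels do not say what a number marks, and the block serves as an alternative only. The genes named were the members, of each pathway list those past the study's thresholds and the 3 most abundant, and the 3 genes most like each member; Nf1, Ier2 and Egr3 were added after their values were seen. Values of 2 genes that this rule names are not reported here. The members and lists were chosen with earlier results of these data known. The scripts were tested on simulated data. Promoter sequences come from RefSeq (GRCm38.p6).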

Additional observations from a re-analysis of the deposited data

Results flagged for a closer look

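Among 21 measures compared across the 6 Smc3/Bcl6 tumors, the members and marker lists included, 3 had 1 tumor far from the others, where chance alone gives about 1 in 20. None of the 3 was the level of a member. In Smc3/Bcl6 tumor 2 the TMM factor was 0.693 and the Spearman correlation of gene length with the deviation of the tumor was -0.466, each the lowest. Its part in the low Dusp2 (12.7 CPM) and Spred2 (2.12 CPM) and the high Spred1 (17.1 CPM) of that tumor was not tested. In Smc3/Bcl6 tumor 1, the lowest of 6 for Dusp6 at 20.6 CPM, the macrophage markers had a mean log2 CPM of 3.25.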

How the results depend on the processing

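The count of members at an adjusted p below 0.05 was 0 under all 17 alternatives, and the count higher by the study's thresholds was 0 as well. The count of members lower was 1 by DESeq2, by limma with quality weights and with the length and GC content offset, Spred2 in each, and 1 with the replicate block and that offset together, Dusp6 (0 to 1 with each tumor left out). Of all genes, 1.89% were lower in the fit with block and offset and 0.440% to 2.32% with a tumor left out. Pathway genes higher numbered 1 by limma, with the tissue label and with the block and offset (0 to 2 with each tumor left out), where 4.57%, 0.925%, 0.501% and 0.578% to 2.43% of all genes were higher. Pathway genes lower numbered 5 by limma, 2 with the replicate block and 5 with the block and offset (0 to 3), where 7.13%, 1.90%, 1.89% and 0.440% to 2.32% of all genes were lower. Member pairs past adjustment fell from 1 to 0 with CPM by total count and with the offset (0 to 1), and relations with marker lists went from 0 to 1 with CPM by total count. Signs turned for Dusp4 (-0.28 by limma, -0.083 with the tissue label, -0.058 with the offset, -0.047 with block and offset, -0.24 to 0.13 with each tumor left out), Dusp5 (-0.31, -0.011 and -0.091 by the first 3, -0.41 to 0.26), Dusp6 (-0.51 by limma, -0.22 with the tissue label, -0.73 with the block, -0.80 with block and offset, -0.59 to 0.26), Spry1 (0.12 with the tissue label, 0.39 with the block, 0.23 with block and offset, -0.69 to 0.49), Spred1 (-0.83 by limma, -0.21 with the tissue label, -0.18 to 0.41), Dusp1 (-1.75 to 0.29) and Fos (-1.72 by limma, -2.44 with the block, -2.61 with block and offset, -1.73 to 0.83). The r of Dusp5 with the B-cell list turned from -0.745 to 0.379 with the replicate block, which rests on tumors 1 to 3 of each genotype only. The cause of these changes was not tested. Dusp2, Dusp10 and Spred2 kept a negative sign under all 17 alternatives (with each tumor left out, Dusp2 -0.95 to -0.064, Dusp10 -0.46 to -0.11 and Spred2 -1.17 to -0.63). With 3 Bcl6 tumors, 95% intervals of the members had widths of 1.51 to 4.09 on the log2 scale, so that a wide range of differences was not excluded.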
